A study of Homo sapiens with 20 samples.

Results

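The 54 genes described here act in G2 phase and mitosis, from the entry switch built on CDK1 and cyclin B to the kinetochore, the spindle, chromosome condensation and cytokinesis. They were picked as a list of gene symbols, and each was read from its probe set with the highest mean over all arrays. All 54 were measured, by 1 probe set each, among 17687 genes tested. They were examined in cells in which KDM4 enzymes, histone demethylases that act on methylated lysine residues of H3, were knocked down or inhibited.

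Gene expression was measured on 20 Clariom S human arrays in the human cell lines Rh30 and Rh41. Both derive from alveolar rhabdomyosarcoma, a soft tissue tumour, and carry the PAX3-FOXO1 fusion. Rh30 cells carried a hairpin RNA against KDM4B (shKDM4B, 2 arrays) or a control hairpin (shControl, 2 arrays) for 72 h. Other Rh30 cells received a small interfering RNA against KDM4C (siKDM4C, 2 arrays) or a control one (siControl, 2 arrays), also for 72 h. Rh30 and Rh41 cells were treated for 48 h with 200 nM of the KDM4 inhibitor QC6352 (3 arrays in each line) or with its vehicle DMSO (3 arrays in each line). Each cell line stands for 1 tumour, and the sources used here do not say how many hairpins were used or whether transduced cells were cloned. The labels call the arrays of a group biological replicates without describing the cultures, so p values measure the spread between these arrays, which may be technical.

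Mitotic genes are transcribed in a wave that peaks in G2 and M phase. The MuvB complex, with B-MYB and FOXM1, binds a short promoter element named the cell cycle genes homology region (CHR), and the factor NF-Y binds CCAAT boxes next to it. In cells that leave the cycle the same element is bound by a repressive form of the MuvB complex, so these genes usually rise and fall together with the share of dividing cells.

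The labels of 10 of the 14 Rh30 arrays contradict each other: the submitters' sample name, the first line of the description, gives another group than the title does. The conflict covers the 4 arrays titled siRNA, the 3 titled QC6352 and the 3 titled DMSO in Rh30. The 4 hairpin arrays and the 6 Rh41 arrays have no conflict. Groups follow the titles below, and counts by sample name stand beside them. 1 array whose title reads shRNA_KDM4C was placed as siKDM4C replicate 2 by its source name. The kinetochore gene SKA2 ranged over 6.66 to 7.08 log2 in those 3 titled QC6352 and over 10.65 to 10.92 log2 in the remaining 11 Rh30 arrays. Grouped by sample name, the 3 arrays with low SKA2 fall into the siKDM4C and siControl groups.

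The median signal per array fell into 3 sets: 6.72 to 6.75 log2 (4 arrays titled siRNA), 6.95 to 6.99 log2 (10 remaining Rh30 arrays) and 7.22 to 7.25 log2 (6 Rh41 arrays). No test compares levels between these sets except in DMSO between the lines and in results by sample name. Where signals of single genes are placed side by side across sets, in text or figures, they are as deposited and the placement was not tested. By sample name the Rh30 DMSO group holds 3 arrays of the siRNA set, and the QC6352 group 1 of that set and 2 of the next. The median change over all genes was then 0.14 for QC6352 in Rh30 and 0.42 for Rh41 against Rh30 in DMSO, against 0.05 and 0.19 by title. KDM4B, the hairpin's target, was at 6.01 and 6.15 log2 in shKDM4B arrays, against 6.74 and 7.30 log2 in shControl arrays (log2 fold change -0.94, SE 0.23, limma adjusted p = 0.0120). KDM4D, of lower signal, averaged 5.44 log2 in shKDM4B and 4.49 log2 in shControl arrays (0.94, limma adjusted p = 0.0343). No other KDM4 gene passed under the hairpin. With QC6352, by title, KDM4A was higher (0.49 in Rh30 and 0.51 in Rh41) and KDM4D lower (-0.80 and -0.95). KDM4C was at 6.25 and 6.32 log2 in siKDM4C arrays, against 6.48 and 6.54 log2 in siControl arrays, a difference that did not pass the test (limma adjusted p = 0.651). Of 8 rhabdomyosarcoma markers, 6 averaged over 8 log2. The exceptions were MYF5, at 4.30 to 5.05 log2 in Rh41, and TFAP2B, at 3.91 to 4.54 log2 in Rh30, near the background probe sets. No measured marker of epithelial, blood, endothelial or fibroblast cells averaged over 8 log2, with 4, 3, 4 and 4 genes measured.

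The members share a promoter feature that the list did not use. RefSeq promoters (GRCh38.p14, 250 bases before to 50 after the gene start) were found for 45 of the 54 genes and for 14249 of all genes tested. The CHR letters TTTGAA, on either strand, occurred in 30 of the 45 (66.7%) and in 12% of the 14249. CCAAT, on either strand, occurred in 32 of the 45 (71.1%) and in 36.4% of the 14249. Both occurred in 22 members (48.9%) and in 4.97% of the 14249. CCAAT was most frequent 50 to 75 bases before the gene start, where 53.3% of the members' promoters and 9.8% of all promoters held a copy. TTTGAA was most frequent among the members within 25 bases on either side of the start, with 17.8% of their promoters in each 25-base bin, against 0.646% of all promoters in the bin before the start and 0.983% in the bin after it. These matches are letters in a window, not tested binding sites.

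**Figure D1:**
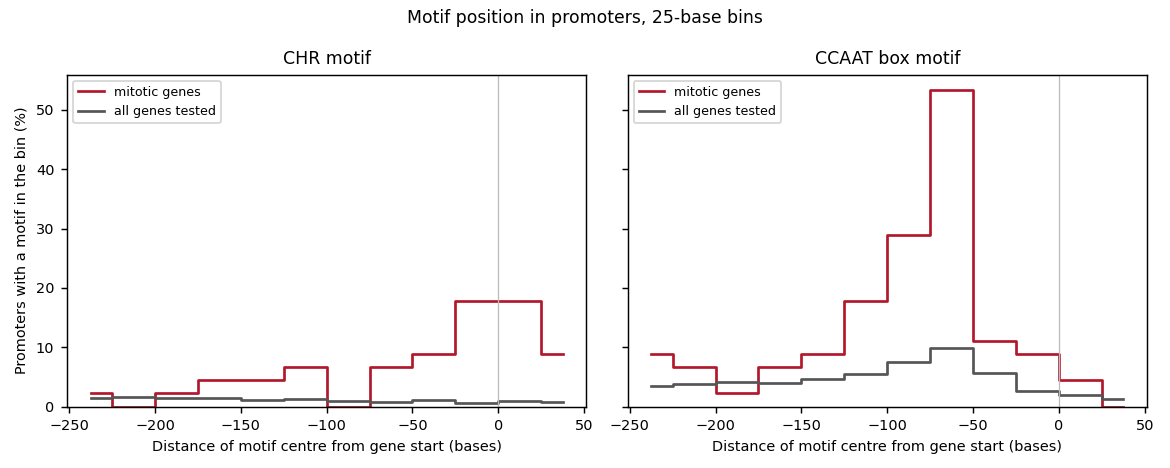
Share of promoters (%) that hold a CHR motif (left) or a CCAAT box motif (right) in each 25-base bin, by distance from the gene start in bases, for the 45 mitotic genes with a promoter sequence (red) and all 14249 promoters of genes tested (grey). The CCAAT curve of the mitotic genes peaks at 53.3% between 75 and 50 bases before the start, and their CHR curve reaches 17.8% on both sides of the start.

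The promoters of 4 members are printed, picked as the largest fall or rise that passed the test in a comparison. SKA2 fell most with the inhibitor in Rh30, and HMMR under the hairpin and with the inhibitor in Rh41. CENPE had the largest rise with the inhibitor in Rh30, and SPC25 the only rise in Rh41, smaller than many other changes of members. Capitals mark TTTGAA and CCAAT on either strand (so TTCAAA and ATTGG where the match is on the other strand), and each sequence runs 5′ to 3′ along the gene. SKA2 held 5 CCAAT and 0 TTTGAA, HMMR 5 CCAAT and 2 TTTGAA, SPC25 2 of each, and CENPE none of either. In HMMR 1 CCAAT and 1 ATTGG share bases.
SKA2 promoter, chr17:59155137-59155436 (- strand): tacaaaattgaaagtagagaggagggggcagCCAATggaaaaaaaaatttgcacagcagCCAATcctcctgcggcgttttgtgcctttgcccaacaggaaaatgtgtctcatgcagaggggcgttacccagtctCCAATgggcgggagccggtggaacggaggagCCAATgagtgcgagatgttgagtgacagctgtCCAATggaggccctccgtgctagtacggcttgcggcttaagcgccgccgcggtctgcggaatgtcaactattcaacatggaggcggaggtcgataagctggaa
HMMR promoter, chr5:163460382-163460681 (+ strand): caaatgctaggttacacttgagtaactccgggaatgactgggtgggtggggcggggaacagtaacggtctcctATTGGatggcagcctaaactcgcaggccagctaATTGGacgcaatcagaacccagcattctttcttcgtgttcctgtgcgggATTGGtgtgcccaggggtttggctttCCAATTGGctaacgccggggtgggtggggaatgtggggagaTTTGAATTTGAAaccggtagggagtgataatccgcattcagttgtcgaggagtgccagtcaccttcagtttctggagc
CENPE promoter, chr4:103198294-103198593 (- strand): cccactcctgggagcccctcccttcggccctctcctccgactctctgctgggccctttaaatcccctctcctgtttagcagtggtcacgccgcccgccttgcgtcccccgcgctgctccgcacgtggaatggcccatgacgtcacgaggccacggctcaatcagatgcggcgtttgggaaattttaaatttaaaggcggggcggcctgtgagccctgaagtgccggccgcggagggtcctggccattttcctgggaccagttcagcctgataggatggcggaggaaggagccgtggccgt
SPC25 promoter, chr2:168890381-168890680 (- strand): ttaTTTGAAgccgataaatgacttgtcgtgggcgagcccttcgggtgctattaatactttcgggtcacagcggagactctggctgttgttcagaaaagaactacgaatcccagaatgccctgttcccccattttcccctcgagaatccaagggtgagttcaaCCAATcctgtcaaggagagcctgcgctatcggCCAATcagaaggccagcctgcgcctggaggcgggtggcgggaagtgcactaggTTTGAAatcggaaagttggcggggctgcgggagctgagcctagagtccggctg

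The KDM4B hairpin went with lower mRNA of kinetochore, condensin and spindle genes. Of the 54 members, 19 (35.2%) were lower in shKDM4B than in shControl arrays at an adjusted p under 0.05 and 0 were higher, where 6.31% of all genes tested were lower and 5.26% higher (limma, Benjamini-Hochberg over 17687 genes). Fold changes in all that follows are differences of group means on the log2 scale, where 1 unit is 2-fold. Their median over the members was -0.30, against 0.03 over all genes, and 47 of the 54 were below 0. These are bulk RNA samples, in which fewer cells in G2 or mitosis and less of an mRNA per cell cannot be told apart. By sample name, which leaves these 4 arrays in place but widens the shared estimate of spread, 15 members were lower and 0 higher, with 4.10% of all genes called, 2.69% lower and 1.41% higher.

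HMMR, a spindle-assembly factor also known as a hyaluronan receptor, moved most. It stood at 6.60 and 6.60 log2 in shKDM4B arrays, against 8.70 and 8.65 log2 in shControl arrays. This fall of 4.21-fold (log2 fold change -2.07, SE 0.15, limma adjusted p = 8.28e-08) was the second largest of all 17687 genes. The HMMR promoter above is one of those with both motifs.

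The outer kinetochore followed. KNL1 is the scaffold that recruits checkpoint proteins, and the NDC80 complex (NDC80, NUF2, SPC24 and SPC25) holds the microtubule end. KNL1 lay at 5.97 and 6.05 log2 in shKDM4B arrays, against 7.35 and 7.25 log2 in shControl arrays (log2 fold change -1.29, SE 0.18, limma adjusted p = 6.90e-05). NDC80 lay at 8.64 and 8.64 log2 in shKDM4B arrays, against 9.93 and 9.81 log2 in shControl arrays (log2 fold change -1.23, SE 0.14, limma adjusted p = 8.34e-06). For both genes the groups were more than 1 log2 unit apart. NUF2 was at 7.42 and 7.34 log2 in shKDM4B arrays, against 8.42 and 8.04 log2 in shControl arrays (-0.85). SPC25 averaged 7.76 log2 in shKDM4B and 8.60 log2 in shControl arrays (-0.84). SPC24 did not pass the test (-0.27). So 4 of these 5 outer kinetochore genes fell. Of the 12 centromere and kinetochore members 5 fell, the other being CENPF (-0.37). CENPA, the histone H3 variant that marks the centromere, was at 8.35 and 8.42 log2 in shKDM4B arrays, against 8.70 and 8.31 log2 in shControl arrays, and its groups overlapped. SKA2 was at 10.70 and 10.65 log2 in shKDM4B arrays, against 10.86 and 10.85 log2 in shControl arrays (-0.18), and did not pass the test (limma adjusted p = 0.477).

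Genes that shape chromosomes also fell. TOP2A, the topoisomerase that untangles sister chromatids, lay at 10.05 and 9.93 log2 in shKDM4B arrays, against 11.27 and 11.20 log2 in shControl arrays (log2 fold change -1.24, SE 0.12, limma adjusted p = 2.62e-06). NCAPG and NCAPH, subunits of condensin I, fell by 1.05 and 0.73 log2. SMC4, an ATPase core subunit of both condensins, was at 11.14 and 11.13 log2 in shKDM4B arrays, against 11.57 and 11.47 log2 in shControl arrays (-0.39), just short of the threshold (limma adjusted p = 0.0661). Among the 10 spindle motors and microtubule-associated proteins 5 fell: HMMR, TPX2 (-0.78), which activates Aurora A on the spindle, PRC1 (-0.70), which bundles the midzone, and the kinesins KIFC1 (-0.59) and KIF11 (-0.54). ASPM, a spindle pole protein, stood at 9.20 and 9.40 log2 in shKDM4B arrays, against 9.64 and 9.56 log2 in shControl arrays (-0.30) and did not pass. KIF20A, a kinesin of the cleavage furrow, fell by 0.89 and was the only 1 of 5 cytokinesis members to pass.

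Of the 8 checkpoint and anaphase genes, the kinases TTK (-0.76), BUB1 (-0.58) and BUB1B (-0.53) fell. CDC20, the activator of the anaphase-promoting complex, was at 11.16 and 11.16 log2 in shKDM4B arrays, against 11.35 and 11.36 log2 in shControl arrays (-0.20), and did not pass. CDCA8, a chromosomal passenger subunit, fell by 0.50, and CDC25B, a phosphatase that activates CDK1, fell by 0.55. The CDCA8 call was lost without shControl replicate 2, shKDM4B replicate 1 or shKDM4B replicate 2 (limma adjusted p 0.0876 to 0.150). By sample name the calls of CDCA8, CDC25B and TTK were lost (limma adjusted p = 0.137, 0.0706 and 0.0515), and with the 4 hairpin arrays fitted alone those of CDCA8 and CDC25B (limma adjusted p = 0.0868 and 0.0567).

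Of the entry switch, CDC25B alone passed the test under the hairpin, and CDK1, CCNB1 and FOXM1 did not. CDK1 was at 9.02 and 9.10 log2 in shKDM4B arrays, against 9.41 and 8.97 log2 in shControl arrays, and the groups overlapped. CCNB1 was at 10.07 and 10.19 log2 in shKDM4B arrays, against 10.22 and 10.19 log2 in shControl arrays. PLK1, a kinase needed for entry and exit from mitosis, was at 11.34 and 11.36 log2 in shKDM4B arrays, against 11.54 and 11.43 log2 in shControl arrays. FOXM1 was at 11.71 and 11.76 log2 in shKDM4B arrays, against 11.62 and 11.75 log2 in shControl arrays. For CDK1, CCNB1, PLK1 and FOXM1 the changes were -0.13, -0.07, -0.13 and 0.05 log2, in the order named. None of the 4 mitotic kinases PLK1, AURKA, NEK2 and MELK passed; MELK was at 9.52 and 9.47 log2 in shKDM4B arrays, against 9.28 and 9.26 log2 in shControl arrays (0.22).

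**Figure D2:**
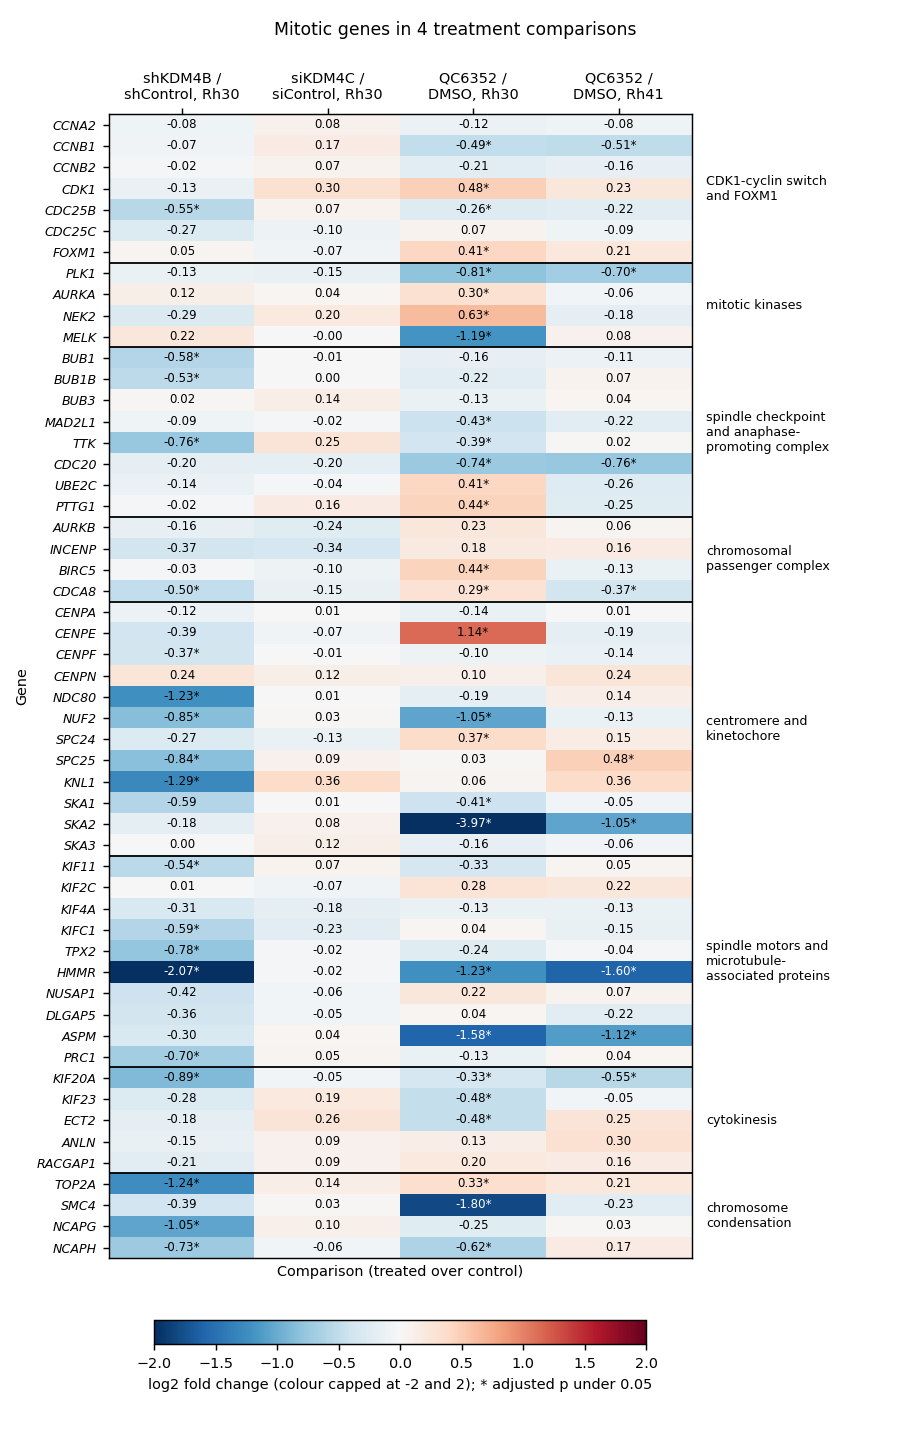
Change of each of the 54 mitotic genes (rows, grouped by role) in the 4 treatment comparisons (columns), as log2 fold change of treated over control, with the value printed in each cell and the colour capped at -2 and 2. A star marks an adjusted p under 0.05; the hairpin column holds 19 stars, all on falls, the siKDM4C column 0, the Rh30 inhibitor column 28 and the Rh41 column 9.

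**Figure D3:**
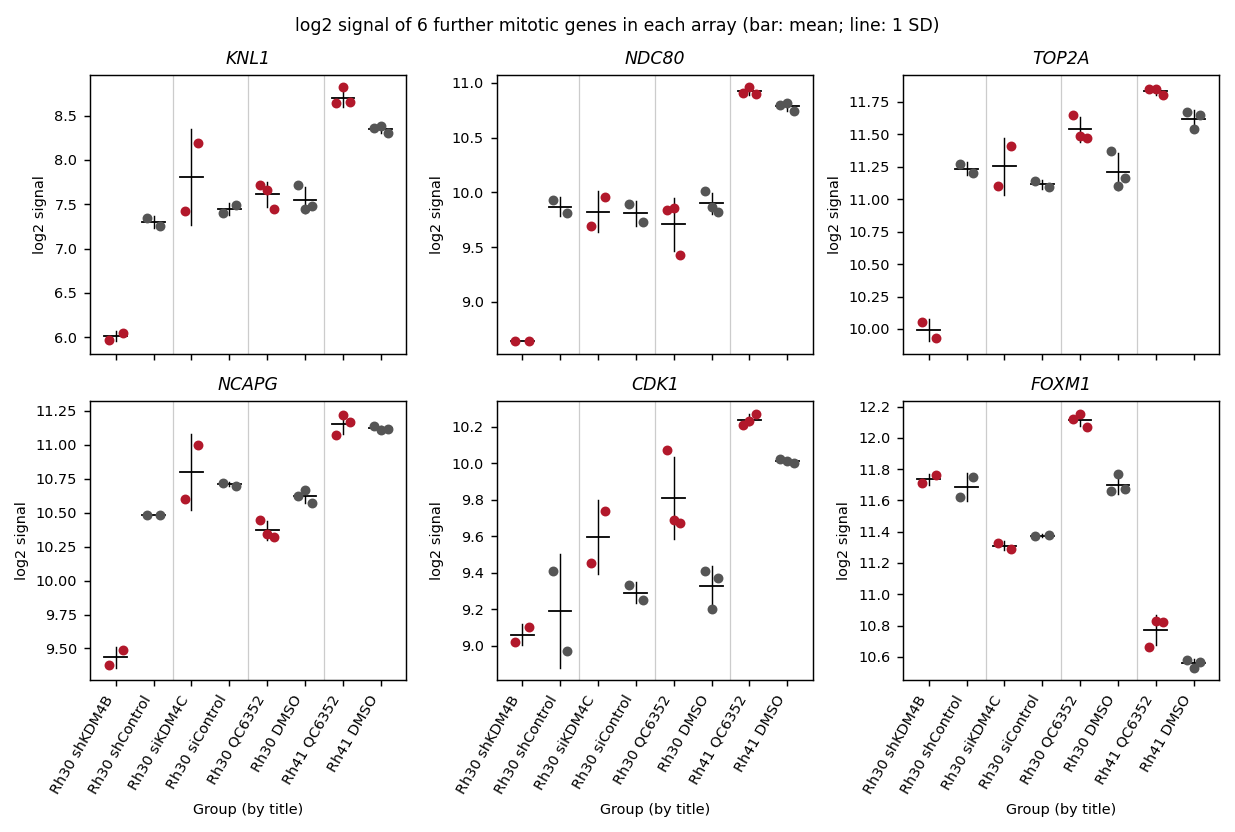
log2 signal of KNL1, NDC80, TOP2A, NCAPG, CDK1 and FOXM1 in each array (points), by group on the horizontal axis, treated groups in red and controls in grey, with the group mean (bar) and 1 SD (line). The 2 shKDM4B arrays lie below all other arrays for the first 4 genes, and for CDK1 and FOXM1 they overlap the shControl arrays.

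With siKDM4C no member passed the test in either direction, where 0.458% of all genes did (0.266% higher and 0.192% lower). A single member, INCENP, the scaffold of the chromosomal passenger complex, had an unadjusted p under 0.05 (log2 fold change -0.34, SE 0.12, limma adjusted p = 0.200). The median change of the members was 0.01, and their 95% confidence intervals lay between -0.60 and 0.73. By sample name the count was again 0, as for all genes, with 11 members at an unadjusted p under 0.05. No share of all genes was counted at the unadjusted cut, by title or by sample name. The 2 siKDM4C arrays differed from each other by up to 0.78 log2, for KNL1, at 7.42 and 8.19 log2 in siKDM4C arrays, against 7.40 and 7.49 log2 in siControl arrays. Replicate 2 was higher than replicate 1 for 33 of the 54 members. This is not far from an even split, and no share of all genes was counted. The median SD of the members was 0.14 log2 in siKDM4C and 0.06 log2 in siControl arrays. Without siKDM4C replicate 1, the changes of KNL1, TTK and NEK2 were 0.75, 0.56 and 0.46 log2. That arm then holds 1 array, which is assumed to vary like the other groups. Without replicate 2, these 3 changes were -0.03, -0.05 and -0.06.

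The inhibitor QC6352 moved the members both ways in Rh30. Of the 54, 17 (31.5%) were lower and 11 (20.4%) higher in QC6352 than in DMSO arrays, where 16.5% of all genes were lower and 19.9% higher. The share of members called higher is near that of all genes, and the share called lower is above it. The median change was -0.13 over the members and 0.05 over all genes. At least 2-fold changes were seen for 7 members, a cut at which no share of all genes was counted. Of these, SMC4, ASPM and HMMR ranked 198, 279 and 500 from the largest fall among all 17687 genes. With the groups by sample name none passed (median change 0.11), where 0.503% of all genes did, 0.458% higher and 0.0452% lower. In that grouping 6 members had an unadjusted p under 0.05, with no share of all genes counted. Each Rh30 inhibitor result below therefore rests on the titles.

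SKA2 fell furthest. Its protein, with SKA1 and SKA3, forms the complex that keeps kinetochores attached to shortening microtubules. SKA2 lay at 6.66, 7.08 and 6.90 log2 in Rh30 QC6352 arrays, against 10.84, 10.78 and 10.92 log2 in Rh30 DMSO arrays. This is a fall of 15.6-fold (log2 fold change -3.97, SE 0.11, limma adjusted p = 7.55e-15), the third largest of all 17687 genes. Its complex partners did not move like it: SKA1 changed by -0.41 log2 with overlapping groups (limma adjusted p = 0.0479) and SKA3 by -0.16, which did not pass. PRR11, the head-to-head neighbour of SKA2, starts 560 bases away on the other strand of chromosome 17 and was also lower, at 10.43 ± 0.10 log2 in QC6352 and 10.85 ± 0.02 log2 in DMSO arrays (SD, n = 3 each; -0.42, limma adjusted p = 0.00120).

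Among other kinetochore genes, NUF2 lay at 7.52, 7.56 and 7.31 log2 in Rh30 QC6352 arrays, against 8.66, 8.40 and 8.48 log2 in Rh30 DMSO arrays (log2 fold change -1.05, SE 0.12, limma adjusted p = 1.49e-06). CENPE, the kinesin that carries chromosomes to the spindle equator, went the other way. It lay at 10.13, 9.63 and 10.09 log2 in Rh30 QC6352 arrays, against 8.97, 8.76 and 8.70 log2 in Rh30 DMSO arrays. This rise of 2.20-fold (log2 fold change 1.14, SE 0.12, limma adjusted p = 2.27e-07) was the largest among the members. SPC24 rose by 0.37. NDC80 (9.84, 9.86 and 9.43 log2 in QC6352, against 10.01, 9.87 and 9.82 log2 in DMSO arrays) and KNL1 (7.72, 7.66 and 7.45 log2 in QC6352, against 7.72, 7.45 and 7.48 log2 in DMSO arrays) overlapped between the groups. CENPA too overlapped, at 8.57, 8.15 and 8.54 log2 in QC6352 arrays, against 8.63, 8.60 and 8.45 log2 in DMSO arrays.

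SMC4 lay at 9.82, 9.83 and 9.62 log2 in Rh30 QC6352 arrays, against 11.69, 11.49 and 11.50 log2 in Rh30 DMSO arrays (log2 fold change -1.80, SE 0.11, limma adjusted p = 1.95e-10). NCAPH fell by 0.62, while NCAPG (-0.25) missed the threshold (limma adjusted p = 0.0506). TOP2A, in contrast, was at 11.65, 11.49 and 11.47 log2 in QC6352 arrays, against 11.37, 11.10 and 11.16 log2 in DMSO arrays, a rise of 0.33 (limma adjusted p = 0.0145). NCAPH and TOP2A thus went apart with the inhibitor, while both fell under the hairpin.

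At the spindle, ASPM lay at 8.14, 7.94 and 8.06 log2 in Rh30 QC6352 arrays, against 9.56, 9.62 and 9.70 log2 in Rh30 DMSO arrays (log2 fold change -1.58, SE 0.12, limma adjusted p = 5.30e-09). HMMR lay at 7.52, 7.71 and 7.18 log2 in QC6352 arrays, against 8.81, 8.76 and 8.53 log2 in DMSO arrays (log2 fold change -1.23, SE 0.12, limma adjusted p = 1.29e-07). These were the only 2 of the 10 spindle members to pass. In cytokinesis ECT2 (-0.48), the exchange factor that activates RhoA at the equator, KIF23 (-0.48), the motor of centralspindlin, and KIF20A (-0.33) fell, and ANLN and RACGAP1 did not pass.

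The kinases split. MELK lay at 8.32, 8.20 and 8.06 log2 in Rh30 QC6352 arrays, against 9.62, 9.31 and 9.23 log2 in Rh30 DMSO arrays (log2 fold change -1.19, SE 0.12, limma adjusted p = 2.99e-07). PLK1 lay at 10.71, 10.64 and 10.68 log2 in QC6352 arrays, against 11.53, 11.46 and 11.46 log2 in DMSO arrays (-0.81, limma adjusted p = 1.24e-07). NEK2, a kinase of centrosome separation, rose by 0.63, and AURKA, the spindle pole kinase, by 0.30. In the checkpoint and anaphase group CDC20 fell, at 10.60, 10.54 and 10.61 log2 in QC6352 arrays, against 11.35, 11.29 and 11.34 log2 in DMSO arrays (-0.74, limma adjusted p = 3.50e-06), as did MAD2L1 (-0.43) and TTK (-0.39). PTTG1 (securin, 0.44) and UBE2C (0.41), the substrate and the ubiquitin-conjugating enzyme of the anaphase-promoting complex, rose. Of the chromosomal passenger genes BIRC5 (survivin) rose by 0.44 and CDCA8 by 0.29, the last with overlapping groups.

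The entry switch also split. CCNB1 lay at 9.84, 9.78 and 9.78 log2 in Rh30 QC6352 arrays, against 10.32, 10.28 and 10.28 log2 in Rh30 DMSO arrays, and fell (-0.49, limma adjusted p = 0.000107). CDK1, its partner, lay at 10.07, 9.69 and 9.67 log2 in QC6352 arrays, against 9.41, 9.20 and 9.37 log2 in DMSO arrays, and rose (0.48, limma adjusted p = 0.00414). FOXM1 lay at 12.12, 12.15 and 12.07 log2 in QC6352 arrays, against 11.66, 11.77 and 11.67 log2 in DMSO arrays, and rose (0.41, limma adjusted p = 0.000442). The groups of these 3 genes did not overlap, a trait that was not counted over all genes. CDC25B fell by 0.26, and CCNA2, CCNB2 and CDC25C did not pass.

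In Rh41, whose labels do not conflict, the inhibitor changed fewer members. Of the 54, 8 (14.8%) were lower and 1 (1.85%) higher in QC6352 than in DMSO arrays, where 8.80% of all genes were lower and 10.9% higher (19.7% in all). The count depends on the fit: it was 15 without the lowest 40% of genes, 17 with trend and robust variance estimates and 17 with array weights, of which 11, 12 and 11 were lower. By sample name, which changes no Rh41 array but the shared spread, 6 were lower and 1 higher, with 8.69% of all genes called, 3.84% lower and 4.85% higher.

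HMMR led the falls, at 7.45, 7.45 and 7.58 log2 in Rh41 QC6352 arrays, against 9.20, 9.13 and 8.96 log2 in Rh41 DMSO arrays (log2 fold change -1.60, SE 0.12, limma adjusted p = 2.24e-08). ASPM lay at 9.0, 9.14 and 8.82 log2 in QC6352 arrays, against 10.20, 9.99 and 10.14 log2 in DMSO arrays (log2 fold change -1.12, SE 0.12, limma adjusted p = 1.85e-06). SKA2 lay at 10.23, 9.93 and 10.23 log2 in QC6352 arrays, against 11.26, 11.12 and 11.15 log2 in DMSO arrays (log2 fold change -1.05, SE 0.11, limma adjusted p = 1.19e-06). With the spread estimated by sample name, the SKA2 call in Rh41 was lost (limma adjusted p = 0.347). That grouping moves no Rh41 array, but its siControl group holds arrays at 10.92 and 6.66 log2 for SKA2, which enter the shared spread. HMMR, ASPM and SKA2 were the only members to change at least 2-fold in Rh41. They ranked 72, 194 and 235 from the largest fall among all 17687 genes, and no share of all genes was counted at this cut. PRR11 averaged 10.58 ± 0.13 log2 in QC6352 and 11.05 ± 0.04 log2 in DMSO arrays (SD, n = 3 each; -0.47, limma adjusted p = 0.00115).

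CDC20 lay at 10.27, 10.45 and 10.38 log2 in Rh41 QC6352 arrays, against 11.15, 11.17 and 11.07 log2 in Rh41 DMSO arrays (-0.76, limma adjusted p = 9.36e-06). PLK1 lay at 10.99, 11.04 and 11.04 log2 in QC6352 arrays, against 11.73, 11.69 and 11.75 log2 in DMSO arrays (-0.70, limma adjusted p = 3.19e-06). CCNB1 lay at 10.14, 10.30 and 10.13 log2 in QC6352 arrays, against 10.63, 10.74 and 10.73 log2 in DMSO arrays (-0.51, limma adjusted p = 0.000237). The groups of these 3 regulators did not overlap, a trait that was not counted over all genes. KIF20A fell by 0.55 and CDCA8 by 0.37; the CDCA8 call was lost in 5 of the 6 fits that leave out 1 Rh41 array (limma adjusted p 0.0549 to 0.107). SPC25 was the 1 rise (0.48, limma adjusted p = 0.00660).

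Several members that moved in Rh30 did not pass in Rh41. SMC4 lay at 11.79, 11.83 and 11.69 log2 in Rh41 QC6352 arrays, against 12.03, 11.98 and 11.99 log2 in Rh41 DMSO arrays (-0.23); its call was gained with trend and robust variance estimates (limma adjusted p = 0.0426) and with array weights (0.0235). CENPE lay at 10.19, 10.42 and 10.27 log2 in QC6352 arrays, against 10.43, 10.47 and 10.56 log2 in DMSO arrays (-0.19). MELK averaged 10.99 log2 in QC6352 and 10.91 log2 in DMSO arrays (0.08). The groups of SMC4, CENPE and MELK did not overlap in Rh41, but the differences were small and none passed in the main fit. No share of all genes without overlap was counted. CDK1 averaged 10.24 log2 in QC6352 and 10.01 log2 in DMSO arrays (0.23). FOXM1 was at 10.66, 10.83 and 10.82 log2 in QC6352 arrays, against 10.58, 10.53 and 10.57 log2 in DMSO arrays (0.21). TOP2A was at 11.85, 11.85 and 11.80 log2 in QC6352 arrays, against 11.67, 11.54 and 11.65 log2 in DMSO arrays (0.21). These last 3 changes, all above 0 as in Rh30, were short of the threshold in Rh41.

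**Figure D4:**
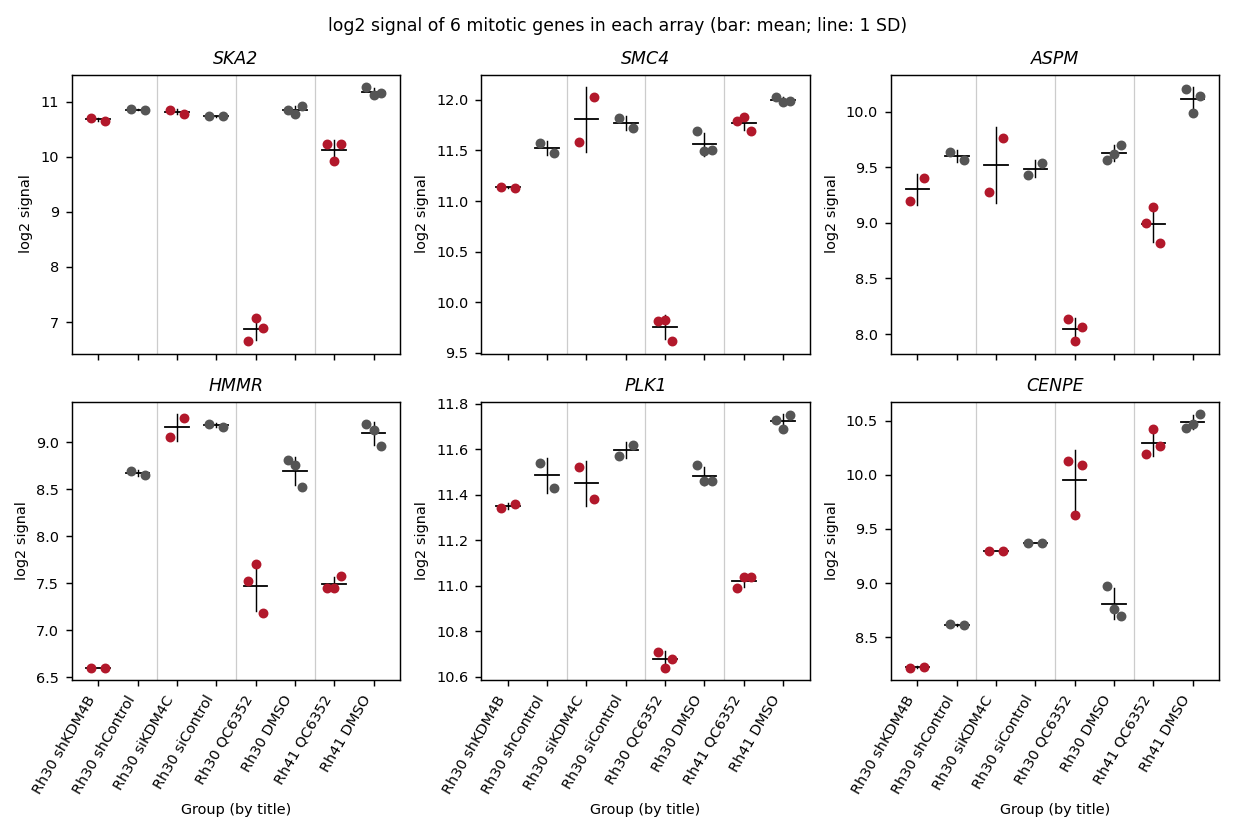
log2 signal of SKA2, SMC4, ASPM, HMMR, PLK1 and CENPE in each array (points), by group on the horizontal axis, treated groups in red and controls in grey, with the group mean (bar) and 1 SD (line). In Rh30 QC6352 arrays SKA2 lies at 6.66 to 7.08, against 10.78 to 10.92 in Rh30 DMSO arrays, and HMMR is low in shKDM4B, Rh30 QC6352 and Rh41 QC6352 arrays alike.

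The difference between the lines was tested member by member, as the Rh41 response minus the Rh30 response. It passed for 13 of the 54, 7 (13.0%) above 0 and 6 (11.1%) below 0, where 10.5% of all genes were above and 9.45% below. Both shares of the members lie near those of all genes. By sample name the difference passed for 3, HMMR, ASPM and CCNB1, all below 0, where 4.31% of all genes passed, 1.17% above and 3.14% below. Above 0 stood SKA2 (2.92, SE 0.15, limma adjusted p = 4.96e-10), SMC4 (1.58), MELK (1.27), NUF2 (0.92) and NCAPH (0.79), all of which fell in Rh30, and of which SKA2 alone also passed in Rh41. Below 0 stood CENPE (-1.33, SE 0.16, limma adjusted p = 1.19e-05), NEK2 (-0.81), PTTG1 (-0.68), UBE2C (-0.67) and CDCA8 (-0.66), which rose in Rh30. PRR11 showed no such difference past the threshold (-0.05, 95% interval -0.32 to 0.22), unlike its neighbour SKA2. For HMMR the difference was -0.37 (adjusted p = 0.151), for ASPM 0.45 (adjusted p = 0.0704) and for CDC20, PLK1 and CCNB1 it was also short of the threshold.

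Members lower in both lines numbered 7: SKA2, HMMR, ASPM, PLK1, CDC20, CCNB1 and KIF20A. This is 7 of the 17 lower in Rh30 and 7 of the 8 lower in Rh41, where the shares over all genes were 33.2% and 62.1%. No member was higher in both, SPC25 being the only member called higher in Rh41, and CDCA8 was called in opposite directions. Of the 17 members lower in Rh30, 13 had a change below 0 in Rh41, and of the 11 higher in Rh30, 4 had a change above 0 in Rh41. Of all genes, 74.5% of those lower and 78.9% of those higher in Rh30 had the same sign in Rh41. Over the 54 members, which share the arrays and are not independent, the 2 responses correlated with Pearson r = 0.56 and Spearman rho = 0.33, and without SKA2 with r = 0.48 and rho = 0.29 (n = 53). Over all 17687 genes they had r = 0.53 and rho = 0.43.

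The inhibitor and the hairpin were set side by side in Rh30, at 48 h and 72 h. Of the 19 members lower under the hairpin, 6 were also lower with QC6352 (CDC25B, HMMR, KIF20A, NCAPH, NUF2 and TTK, 6 of the 17), 11 did not pass and 2 were higher (TOP2A and CDCA8). Of all genes lower under the hairpin, 38.4% were lower with QC6352. In sign, 14 of the 19 members were below 0 with QC6352, as were 59.7% of all genes lower under the hairpin. The QC6352 response minus the hairpin response passed for 29 members, 22 above 0 and 7 below, where 13.0% of all genes were above and 11.4% below (24.5% in all). Above 0 were TOP2A (1.57, SE 0.16, limma adjusted p = 7.64e-07), CENPE (1.52), KNL1 (1.35), NDC80 (1.04) and NEK2 (0.92). Below 0 were SKA2 (-3.79, SE 0.17, limma adjusted p = 5.75e-11), MELK (-1.42), SMC4 (-1.41), ASPM (-1.27) and PLK1 (-0.67). By sample name 12 members passed, all above 0, where 3.47% of all genes passed, 2.82% above and 0.650% below. Across the 54 members the 2 responses had r = 0.10 and rho = 0.23, and the hairpin response set against the Rh41 inhibitor response had r = 0.18 and rho = -0.01. Over all 17687 genes these were r = 0.18 and rho = 0.13, and r = 0.08 and rho = 0.05. HMMR and KIF20A were the only members lower in shKDM4B, Rh30 QC6352 and Rh41 QC6352 arrays, and 15 members, CCNA2, CCNB2 and CENPA among them, passed in none of the 4 treatment comparisons. Neither count was set beside a share of all genes.

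**Figure D5:**
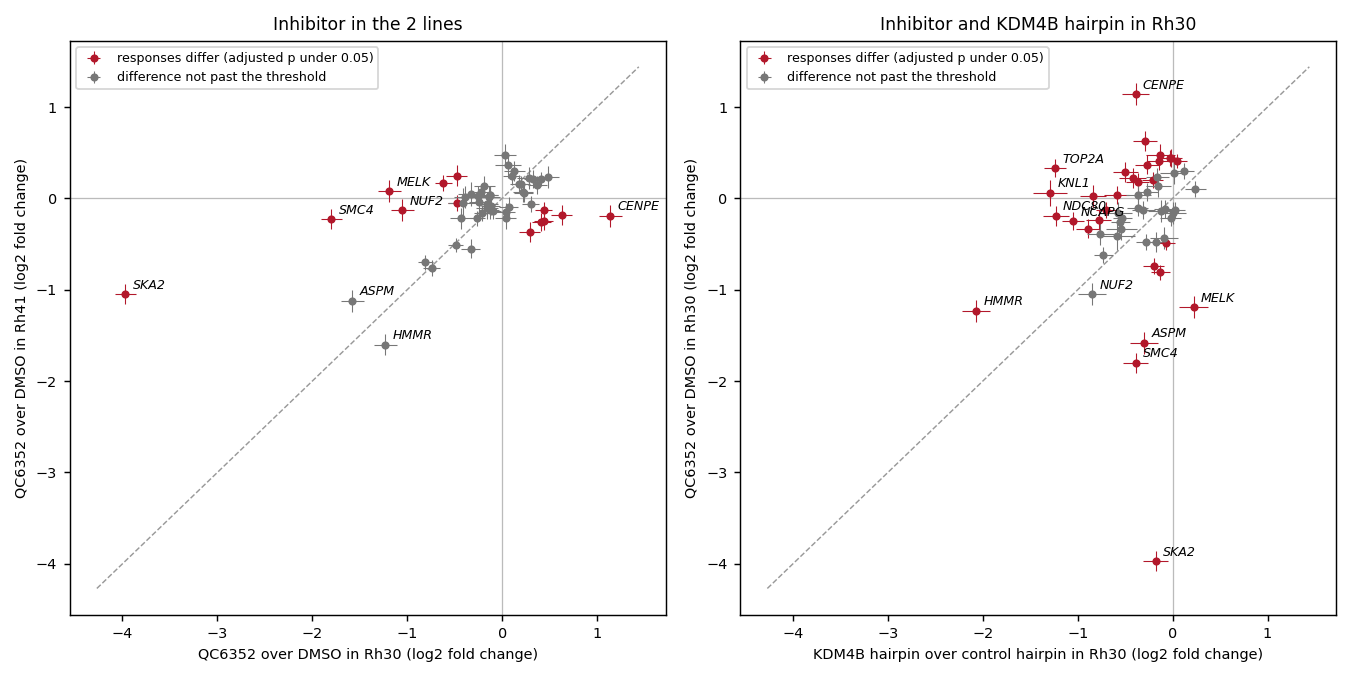
log2 fold changes of the 54 mitotic genes with SE bars: QC6352 over DMSO in Rh41 against Rh30 (left), and QC6352 over DMSO against KDM4B hairpin over control hairpin in Rh30 (right), with the line of equal change dashed. Red marks members whose 2 responses differ at an adjusted p under 0.05, 13 on the left and 29 on the right; SKA2 lies farthest from the line in both.

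Both motifs were read against the calls, over the members with a promoter. TTTGAA stood in 12 of the 16 hairpin-lower members (75%) and in 18 of the 29 that did not pass (62.1%). For the inhibitor in Rh30 it stood in 10 of 16 lower members (62.5%), 3 of 7 higher (42.9%) and 17 of 22 that did not pass (77.3%), and in Rh41 in 5 of 8 lower (62.5%) and 24 of 36 that did not pass (66.7%). CCAAT stood in 11 of the 16 hairpin-lower members (68.8%) and in 21 of the 29 that did not pass (72.4%). For the inhibitor in Rh30 it stood in 11 of 16 lower members (68.8%), 6 of 7 higher (85.7%) and 15 of 22 that did not pass (68.2%), and in Rh41 in 8 of 8 lower and 23 of 36 that did not pass (63.9%). These shares are descriptions of small sets and were not tested.

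Other genes of the same pathways were counted from lists written for this purpose, and their counts stand beside the shares of all genes called. These shares were 6.31% lower and 5.26% higher under the hairpin. Under the hairpin, 5 of 24 other kinetochore and centromere genes were lower and 0 higher, led by DSN1 (-1.06), a MIS12 complex subunit, and ZW10 (-1.0), a checkpoint protein. Of 18 other condensin and cohesin genes 8 were lower and 0 higher, with the cohesin subunits STAG2 (-1.15) and STAG1 (-0.82) first. Of 35 other mitotic genes 11 were lower, the kinesins KIF15 (-1.04) and KIF14 (-0.91) first, and 2 were higher, WEE1 (0.59), the kinase that inhibits CDK1, and CKS1B (0.48). Of 17 anaphase-promoting complex genes CDC27 was lower (-0.50) and CDC23 higher (0.61). With siKDM4C only WEE1 (0.67) and the G1/S cyclin CCNE2 (0.90) of all these lists passed, both higher.

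With QC6352 in Rh30 the same lists went both ways: 7 lower and 8 higher of the 24 kinetochore genes, 7 and 5 of the 18 condensin and cohesin genes, 9 and 14 of the 35 mitotic genes, 4 and 3 of the 17 anaphase-promoting complex genes. Over all genes 16.5% were lower and 19.9% higher, and the anaphase-promoting complex list, at 23.5% lower and 17.6% higher, lies near that. CDKN3, a phosphatase of CDK1 and CDK2, averaged 6.08 log2 in QC6352 and 8.29 log2 in DMSO arrays (-2.21), and STAG1 averaged 6.38 log2 in QC6352 and 8.19 log2 in DMSO arrays (-1.81). CDC25A, a phosphatase that activates CDKs, rose by 1.41, and UBE2S, the second ubiquitin-conjugating enzyme of the anaphase-promoting complex, by 1.17. In Rh41 the counts were 2 lower and 5 higher of the kinetochore genes, 3 and 3 of condensin and cohesin, 8 and 3 of the mitotic genes and 0 and 3 of the anaphase-promoting complex genes, with 8.80% of all genes lower and 10.9% higher. The share of kinetochore genes that were lower, 8.33%, lies near that of all genes. CDKN3 (-0.63) and DEPDC1 (-0.62) led the falls of the mitotic list there, and both were also lower in Rh30 (-2.21 and -1.23). CENPI (0.61), a centromere protein, led the rises of the kinetochore list in Rh41.

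Regulators of the mitotic wave and genes of G1/S were counted in the same way. CDKN1A, which encodes the CDK inhibitor p21, rose by 0.58 under the hairpin, by 1.23 with QC6352 in Rh30 and by 0.88 in Rh41. Of the 27 regulators, 3 were lower and 4 higher under the hairpin, 6 and 13 with QC6352 in Rh30, and 3 and 7 in Rh41 (11.1% and 25.9%, against 8.80% and 10.9% of all genes). E2F1 (-0.87) and MYBL2 (-0.52), which encodes B-MYB, fell under the hairpin. E2F5 rose there by 1.06 (limma adjusted p = 0.00277), the largest change among the 27. Of the subunits of the CCAAT-binding factor NF-Y, NFYC and NFYA fell in Rh30 (-0.99 and -0.65) and did not pass in Rh41 (-0.06 and -0.35). NFYB fell in Rh41 (-0.79) and did not pass in Rh30 (-0.08), and the difference between the lines passed for NFYC (0.93) and NFYB (-0.72). Under the hairpin and with siKDM4C no NF-Y subunit passed. The NF-Y subunits were picked out of the regulators by name, and a link to the CCAAT counts was not tested. Of 41 G1/S and replication genes 10 were lower and 1 higher under the hairpin, 9 and 15 with QC6352 in Rh30, and 4 and 5 in Rh41. The Rh41 shares, 9.76% lower and 12.2% higher, lie near those of all genes. CCNE2 fell by 0.89 under the hairpin, and it rose by 1.26 with QC6352 in Rh30 and by 0.53 in Rh41; the inhibitor response minus the hairpin response in Rh30 was 2.14 (limma adjusted p = 4.59e-07). CLSPN, a replication checkpoint mediator, had the same pattern (-0.94, 1.00 and 0.39, with a difference of 1.94, limma adjusted p = 1.98e-07).

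In DMSO the 2 lines differed in many members, as in most genes. As deposited, 10 members were lower and 29 higher in Rh41 than in Rh30 (57.6% of all genes passed, 16.8% lower and 40.7% higher). The median over all genes was 0.19 as deposited and -0.06 after each array was centred on its median, and after centring 16 members were lower and 16 higher. By sample name 8 members were lower and 31 higher, where 61.8% of all genes passed, 9.62% lower and 52.2% higher. The following genes kept their direction and their call under both scalings and under quantile normalization. Higher in Rh41 were CENPE (1.68), MELK (1.53), BUB3 (1.34), ECT2 (1.17) and BUB1 (0.98). Lower in Rh41 were FOXM1 (-1.14), SPC24 (-0.94), KIF4A (-0.94), NEK2 (-0.76) and AURKB (-0.73). CENPE was at 10.43 to 10.56 log2 in Rh41 DMSO arrays, against 8.70 to 8.97 log2 in Rh30 DMSO arrays, and the 3 Rh30 QC6352 arrays, at 9.63 to 10.13 log2, lay between them.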

How the data were processed

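RNA of 20 samples was hybridised to Affymetrix Clariom S arrays. The deposited table holds 1 log2 signal for each probe set and array. Per the submitters' processing notes, GCOS was used; its version and the normalization method are not stated there. Array medians fell into 3 levels, and whether all arrays were normalized together was not tested. Comparisons within Rh30 hairpin and inhibitor arrays, within siRNA arrays and within Rh41 arrays do not cross these levels.

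Of 24351 probe sets, 17709 carried 1 gene symbol and 6642 none. Of genes with several probe sets the one with the highest mean was kept, which left out 22 and gave 17687 genes. The test was limma's moderated test (version 3.58.1, R 4.3.3; lmFit, then eBayes without trend) on all 20 arrays, with 8 group means and 12 residual degrees of freedom. Adjustment was by Benjamini-Hochberg over all genes, with a threshold of 0.05. The fit was tested on simulated data. Groups of 2 or 3 arrays limit the precision, with a median SE of the members' changes of 0.10 to 0.13 log2 in the 4 treatment comparisons.

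The members and lists were chosen with earlier results of these data known. Full values were given for up to 6 rises and 6 falls past the threshold per comparison (5 each way for differences of responses and for DMSO), for the largest change in each of 8 role groups, and for the 3 smallest p values where fewer than 3 passed. Of other lists, up to 2 rises and 2 falls were named, and the NF-Y subunits were read in addition. Members are otherwise named by role. Promoter sequences are from RefSeq (GRCh38.p14). Alternatives were quantile normalization, centring, a filter, trend with robust estimation, array weights, a replicate block, the lower-mean probe set, a fit of the compared arrays or of the 10 arrays without conflict, groups by sample name, and leaving out each array.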

Additional observations from a re-analysis of the deposited data

Results flagged for a closer look

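The inhibitor response, QC6352 minus DMSO on the log2 scale, was compared between the lines (Rh41 minus Rh30, limma, adjusted over all genes). The difference passed above 0 for 7 of the 54 members (13.0%) and below 0 for 6 (11.1%). Of all genes, 10.5% passed above 0 and 9.45% below 0, so the members' shares lie near these. The 10 members listed here were picked as the largest differences each way among those that passed, so each passes by selection. SKA2 differed by 2.92, with responses of -1.05 in Rh41 and -3.97 in Rh30. SMC4 differed by 1.58, with -0.23 in Rh41 and -1.80 in Rh30. MELK differed by 1.27, with 0.08 in Rh41 and -1.19 in Rh30, NUF2 by 0.92, with -0.13 in Rh41 and -1.05 in Rh30, and NCAPH by 0.79, with 0.17 in Rh41 and -0.62 in Rh30.

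CENPE differed by -1.33, with responses of -0.19 in Rh41 and 1.14 in Rh30, and NEK2 by -0.81, with -0.18 in Rh41 and 0.63 in Rh30. PTTG1 differed by -0.68, with -0.25 in Rh41 and 0.44 in Rh30, UBE2C by -0.67, with -0.26 in Rh41 and 0.41 in Rh30, and CDCA8 by -0.66, with -0.37 in Rh41 and 0.29 in Rh30. These 10 genes rest on Rh30 arrays whose sample names give other groups than their titles.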

How the results depend on the processing

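Over 1418 values recomputed under the alternatives, 1130 changes of named members kept their direction and side of the threshold, 30 lost the threshold, 5 gained it and 27 turned sign; 106 counts stayed within 1.5 times of those reported and 7 did not. Of the medians over members 93 stayed within the replicate spread and 20 moved. The tallies include the lower-mean probe set, which could not change a member's own values, as no member has several probe sets. They also count the DMSO fit with the replicate block as unmoved, although it is no check of that count. With groups by sample name the count in Rh30 with QC6352 was 0, the count of differences between the lines 3 and that of inhibitor minus hairpin 12. By sample name the Rh30 inhibitor changes were 0.02 for SKA2, 0.03 for SMC4, 0.23 for ASPM, 0.28 for MELK, 0.26 for NUF2, 0.29 for CCNB1 and -0.33 for CENPE. The differences between the lines were -1.07 for SKA2, -0.26 for SMC4, -0.21 for MELK, -0.39 for NUF2 and 0.14 for CENPE, and the differences from the hairpin 0.20 for SKA2, 0.06 for MELK, 0.42 for SMC4, 0.53 for ASPM and 0.02 for PLK1. The siKDM4C changes were 0.21 for INCENP, -0.04 for KNL1, 0.09 for AURKB, -0.04 for CDK1, -0.30 for TTK and -0.37 for ECT2. In Rh41 the count was 15 without the lowest 40% of genes, 17 with trend and robust estimation and 17 with array weights. The cause was not tested. Leaving out 1 array gave 15 to 16 members under the hairpin, 0 to 4 with siKDM4C, 24 to 29 with QC6352 in Rh30, 8 to 9 in Rh41, 12 to 14 for the difference between lines, 20 to 28 for inhibitor minus hairpin and 35 to 38 for DMSO. It moved siKDM4C changes over -0.03 to 0.75 for KNL1, -0.06 to 0.46 for NEK2, -0.05 to 0.56 for TTK and -0.02 to 0.30 for TOP2A.

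With the replicate block the counts were 18 under the hairpin, 0 with siKDM4C, 28 with QC6352 in Rh30, 9 in Rh41, 12 for the difference between lines, 25 for inhibitor minus hairpin and 26 for DMSO, where 39 passed without the block. For DMSO the blocks lie within each line, so that fit compares the lines at replicate 1 and not by group means. Its count of 26 is therefore no check of the 39. Replicate numbers are not described as pairing the arrays, and deviations of same-numbered arrays correlated at -0.21 to 0.26. Of the 6 QC6352 and DMSO arrays of Rh30, 3 correlated best with the array of their own number in the other group, and of those of Rh41 0 of 6. Signals near the background probe sets, at 3.64 to 4.01 log2, limit what can be read of low genes; the lowest value of a member in any array was 5.97 log2, of KNL1.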

Other observations

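In DMSO, genes around the members set the 2 lines apart as well. STAG2, a cohesin subunit, averaged 3.27 log2 in Rh41, below the background probe sets, and 8.06 log2 in Rh30. It was thus at least 17.2-fold lower in Rh41, taking the background median of each Rh41 array (mean 3.95 log2) as its level there (limma adjusted p = 4.62e-14), while its paralog STAG1 averaged 9.86 log2 in Rh41 and 8.19 log2 in Rh30 (1.66). STAG1 also differed in inhibitor response, Rh41 minus Rh30, by 1.97 (limma adjusted p = 3.98e-07). As deposited, the median over all genes was 0.19 higher in Rh41. CDK4, a G1 kinase, averaged 11.52 log2 in Rh41 and 13.49 log2 in Rh30 (-1.97), and CCNE1, a G1/S cyclin, 10.80 log2 in Rh41 and 9.17 log2 in Rh30 (1.63). CENPC, which links the centromere to the kinetochore, averaged 8.97 log2 in Rh41 and 7.05 log2 in Rh30 (1.92). CDKN1A averaged 7.98 log2 in Rh41 and 9.85 log2 in Rh30 (-1.86).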
